A study of Mus musculus with 24 samples.

Results

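Solute carriers are membrane proteins that move ions, nutrients and metabolites across the plasma membrane and the membranes of organelles. The genes described here are those with a symbol of the Slc series, chosen by the symbol alone. The 16 rows of the zinc families Slc30a and Slc39a were left out, as were the 3 rows named Slc12a3, Slc2a1 or Slc7a11 and 9 rows with several names joined. This left 180 of the 12224 rows, with 179 names from 42 families. Slc4a3 stood on 2 rows. Of the 180 rows, 4 (Slc4a1ap, Slc7a6os, Slc9a3r1 and Slc9a3r2) encode proteins that are not carriers; they are included in counts over all 180 or 172 rows, which are called carriers below for short.

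The libraries came from mpkCCD cells, an immortalized mouse cell line of the kidney cortical collecting duct, grown on permeable inserts for 9 days without the vasopressin analogue dDAVP and then kept in simple medium for 24 h. Gpr39 encodes a zinc-sensing G protein-coupled receptor, and cpd1324 is a synthetic agonist of it. The 4 groups of 6 libraries each were Gpr39 knockout (KO) cells given 1 µM cpd1324, KO cells given vehicle, unmodified wild-type (WT) cells given 1 µM cpd1324 and WT cells given vehicle. All 4 groups received 10 µM ZnCl2, exposure lasted 2 h, and the compound was placed in the basolateral compartment. The labels give 0.1% DMSO for the vehicle groups. They do not say how many KO clones were used, which part of Gpr39 was edited, or whether the 6 libraries of a group were separate cultures, so each p-value measures the spread between these libraries, which may be technical. Library numbers ran group by group, and library order and treatment cannot be told apart.

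In the kidney the collecting duct takes up sodium and water and adjusts acid, and its cells also need carriers for their own upkeep. Mitochondrial carriers of the SLC25 family exchange nucleotides, phosphate and metabolites across the inner mitochondrial membrane. Amino acid carriers of the SLC1, SLC3, SLC6, SLC7, SLC36, SLC38 and SLC43 families bring amino acids into the cell or out of lysosomes, and some of them form pairs of a heavy and a light subunit. Other families carry bicarbonate and protons, chloride with cations, phosphate, iron and copper, sugars, or the nucleotide sugars used for glycosylation in the Golgi.

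Levels are given in scaled units per gene length, so they can be compared between genes, and 1 unit is the filter set on the mean over all 24 libraries. Depth was 29785162 to 51931776 recovered reads per library, and errors are the spread between libraries. The targeted gene Gpr39 averaged 9.40 ± 0.88 units in KO agonist, 9.37 ± 0.65 in KO vehicle, 29.2 ± 1.33 in WT agonist and 21.6 ± 1.61 units in WT vehicle libraries (SD, n = 6 each), so its RNA was lower in KO cells but still present. Of 15 markers of principal cells, the main cell type of the duct, 12 were measured. Their sum was 8335 to 10960 units in WT agonist and 4215 to 4789 units in WT vehicle libraries. Its largest member was the keratin Krt18, at 6356 ± 638 units in WT agonist and 2236 ± 196.4 units in WT vehicle libraries, which is 67.3% and 49.7% of the sum. The 3 markers called higher were Krt18, Cdh1 and Epcam (log2 fold changes 1.51, 0.89 and 0.51). The 5 called lower were Scnn1g (−1.35), Avpr2 (−0.94), Aqp2 (−0.54), Hsd11b2 (−0.31) and Scnn1b (−0.30), so the sum does not describe the list as a whole. The part of these markers in the carrier results was not tested. Slc4a1 and Slc26a4, the anion exchangers that mark intercalated cells, were below the filter, while Car2 (225 ± 27.1 units in WT agonist and 221 ± 26.1 units in WT vehicle libraries) and Atp6v1b1 (55.5 ± 6.45 units in WT agonist and 55.6 ± 7.17 units in WT vehicle libraries) of the same list passed it. Of the other lists, 1 of 12 proximal tubule markers, 0 of 4 of thick limb, 1 of 6 of fibroblasts and 2 of 6 of endothelial and immune cells passed it.

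The 6th KO vehicle library stood apart from the other 5 of its group at 49 of the 172 carriers that passed the filter, being far below them at 37 and far above at 12, where far means a gap to the nearest library of more than 0.625 of the group's range. The 2nd KO agonist library did so at 11 carriers, and the other 22 libraries at 0 to 4 each. Counts of calls that rest on KO libraries are therefore also given without these 2.

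Of the 180 rows, 172 passed the filter, and the 8 that did not were 1 of the rows of Slc4a3 and the rows of Slc4a1, Slc4a5, Slc26a4, Slc3a1, Slc15a3, Slc23a4 and Slc35f3. Under vehicle, 22 carriers of WT cells lay at or above 100 units, 108 between 10 and 100, 42 between 1 and 10 and 8 below 1 unit. The median carrier stood at 23.5 units, against 28.6 units for the median of all rows. The 12 most abundant carriers held 40.8% of the summed level.

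The most abundant were the ADP/ATP exchangers of the inner mitochondrial membrane. Slc25a4 averaged 607 ± 22.5 units and Slc25a5 579 ± 12.00 units in WT vehicle libraries, followed by Slc38a2, a sodium-coupled carrier of neutral amino acids, at 563 ± 29.4 units (SD, n = 6 each). The ranges of these 3 neighbours overlapped. The mitochondrial phosphate carrier Slc25a3 came next at 337 ± 6.59 units, and its range overlapped neither Slc38a2 above it nor the mitochondrial citrate carrier Slc25a1 below it at 279 ± 11.8 units. Slc7a1, which imports arginine and lysine, averaged 270.1 ± 12.7 units, overlapping Slc25a1. Classes were set by family number alone, so a class can hold carriers of other substrates. By class, mitochondrial carriers held 37.5% of the summed carrier level, amino acid carriers 20.6% and the carriers of nucleotide sugars and sugar phosphates 10.7%. Elsewhere the leading genes were the bicarbonate exchanger Slc4a2 (202 ± 6.82 units), the choline transporter-like gene Slc44a2 (184 ± 13.8), the sugar efflux carrier Slc50a1 (162 ± 7.53), the lactate and pyruvate carrier Slc16a1 (152 ± 3.85) and the iron exporter Slc40a1 (136 ± 18.4 units).

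In WT cells the agonist was followed within 2 h by large rises in a few carriers and modest falls in many. Slc25a25, Slc26a1, Slc20a1, Slc66a2, Slc38a2, Slc2a6 and Slc3a2 rose by more than 1 on the log2 scale, and the iron exporter Slc40a1, the copper carrier relative Slc31a2 and Slc35g1 fell by more than 1. Of the 172 carriers tested, 28 rose and 74 fell at an adjusted p below 0.05 in limma, which is 16.3% and 43% of them. Among all 11557 rows tested, 28.6% rose and 28.6% fell. In 22 of the risers and 43 of the fallers no agonist library overlapped the vehicle libraries. That is 12.8% and 25% of the 172 carriers, against 19.4% and 17.3% of all rows. The median log2 fold change was −0.13 over the carriers and −0.01 over all rows. The same bulk RNA comes from all cells of an insert, so fewer cells of a type and less RNA per cell cannot be told apart.

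The split depended on the scaling. The values of WT agonist libraries summed to 1.18 times those of WT vehicle libraries, and bringing all libraries to the same total moved the median of all rows to −0.24, with 18 carriers higher and 126 lower, beside 12.4% and 60.1% of all rows. Of the 28 that rose, 18 kept their call and 4 changed sign without being called (Slc1a4, Slc35b1, Slc7a6 and Slc7a6os), while all 74 that fell kept theirs. Among changes of at least 1.5-fold the directions were nearly even, with 14 carriers higher and 12 lower, against 7.54% and 5.43% of all rows.

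Slc25a25 on chromosome 2 encodes a calcium-regulated carrier that exchanges ATP-magnesium for phosphate across the inner mitochondrial membrane. It measured 149.7, 172 and 210.3 units at the lowest, median and highest WT agonist library, against 20.1, 24.5 and 29.3 units in WT vehicle libraries. The groups lay far apart, and the log2 fold change was 2.83 ± 0.11 with its standard error (adjusted p = 2.02e-17), as in all such pairs of values here. Its relative Slc25a24, another calcium-regulated ATP-magnesium carrier, also rose, by 0.79 ± 0.05 (adjusted p = 4.3e-12), averaging 189.8 ± 11.1 units under agonist and 109.8 ± 9.64 units under vehicle (SD, n = 6 each), without overlap. Slc25a23, also of that subgroup, fell, with overlapping groups and a log2 fold change of −0.24 ± 0.06 (adjusted p = 0.00116).

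Slc20a1 encodes a sodium-phosphate cotransporter that supplies cells with phosphate. Its lowest, median and highest values were 56.8, 68.8 and 81.8 units in WT agonist libraries, against 22.8, 25.6 and 27.3 units in WT vehicle libraries, a log2 fold change of 1.42 ± 0.07 (adjusted p = 6.5e-15). Slc26a1, a sulfate and anion exchanger, was scarce in both groups but did not overlap between them, at 4.91, 6.56 and 10.1 units under agonist and 1.12, 1.602 and 1.99 units under vehicle (1.83 ± 0.14, adjusted p = 2.69e-11). Slc66a2, a PQ-loop membrane protein, measured 156, 173 and 205 units in agonist libraries, against 58.5, 71.7 and 85.7 units in vehicle libraries (1.30 ± 0.14, adjusted p = 1.56e-08). Each of these 3 genes was higher in all 6 agonist libraries than in any vehicle library. The same held for Slc2a6, a hexose carrier of the glucose transporter family found on lysosomes, with 7.26, 11.4 and 13.1 units under agonist and 3.09, 4.64 and 7.04 units under vehicle (1.13 ± 0.17, adjusted p = 4.57e-06).

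**Figure D1:**
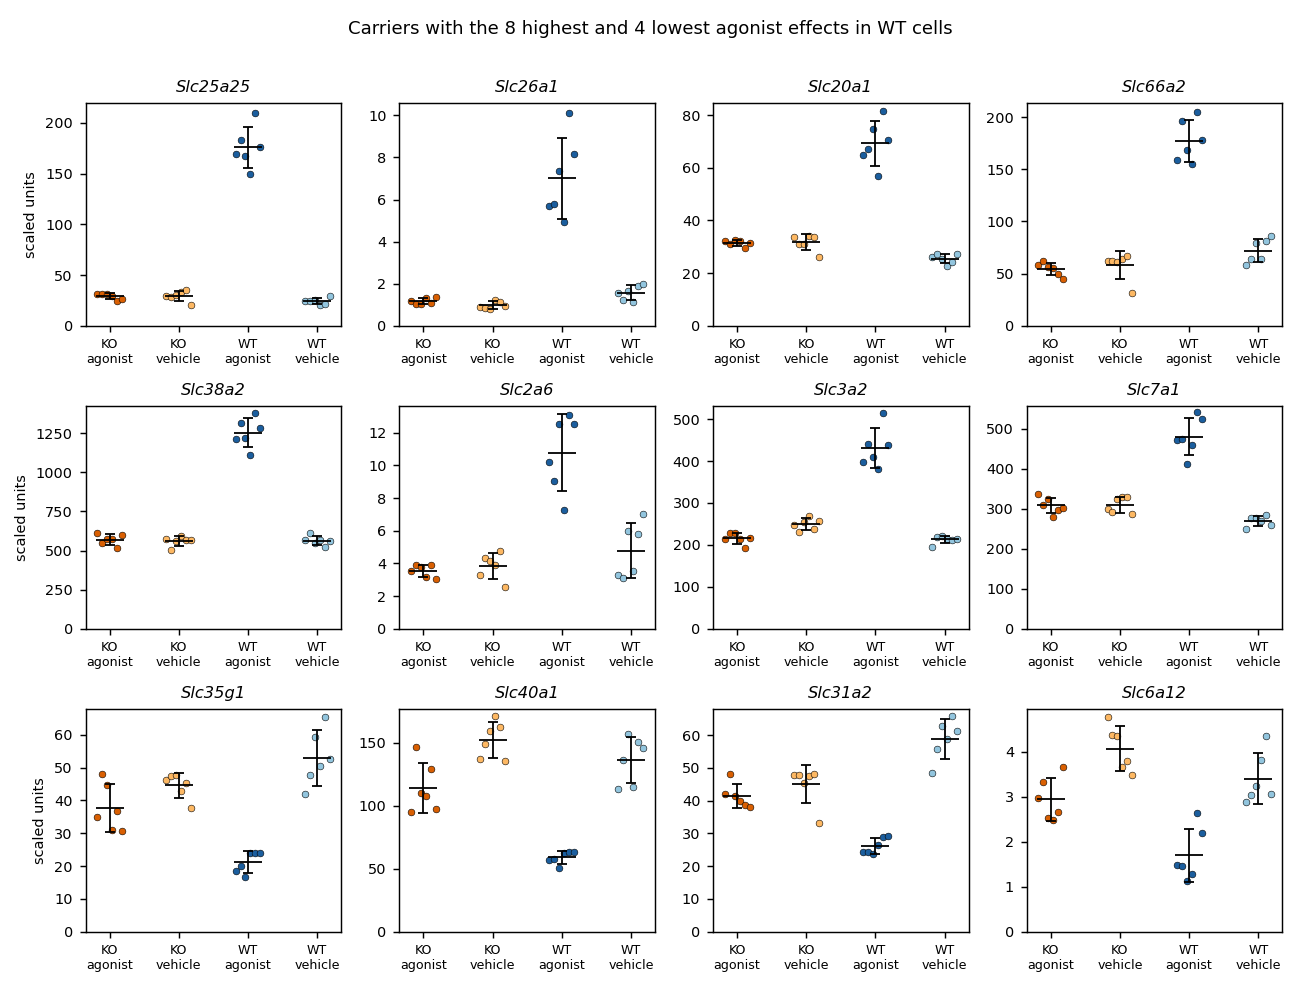
Level of 12 carriers in scaled units per gene length, 1 point per library, with the mean and SD of the 6 libraries of each group as horizontal and vertical bars. The upper 8 genes are higher in all 6 WT agonist libraries than in the WT vehicle libraries, and the bottom 4 are lower; KO agonist and KO vehicle libraries overlap for all of these genes except Slc3a2.

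The promoters of Slc25a25, Slc26a1, Slc20a1, Slc38a2 and Slc2a6 were searched in the RefSeq promoter table (build GRCm38.p6), which held entries for 135 of the 180 carriers, over the 250 bases before each listed start and on both strands. The motifs were the cyclic AMP response element (CRE) TGACGTCA, its half-site TGACGT, which lies within the full element, the AP-1 motif TGANTCA, the E-box CACGTG and the amino acid response motif TGATGNAA. The sequences below are shown because they belong to 3 of the strongest risers and hold a full motif, in capitals. Slc25a25 has a CRE at −150 from its 3rd listed start, on the minus strand at chr2:32424067-32424316. Slc26a1 has an AP-1 motif at −61 from its 1st listed start, of which 30 bases are given from the minus strand at chr5:108675408-108675437. In that window 204 of the 250 bases lie in an annotated exon of the gene, and the motif overlaps such bases. Slc20a1 has E-boxes at −175 and −22 from its 1st listed start, on the plus strand at chr2:129198523-129198763, without the last 9 bases, which lie in an annotated exon. The other listed starts of Slc25a25 and Slc20a1 had no motif, and the 2nd of Slc26a1 had an E-box at −47.
Slc25a25: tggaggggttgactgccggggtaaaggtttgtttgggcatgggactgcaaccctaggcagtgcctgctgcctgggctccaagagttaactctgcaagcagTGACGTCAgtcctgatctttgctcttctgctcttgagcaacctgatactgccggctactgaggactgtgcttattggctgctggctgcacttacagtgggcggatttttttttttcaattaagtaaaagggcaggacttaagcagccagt
Slc26a1: gggaaaacccaTGACTCAgctatcttttgg
Slc20a1: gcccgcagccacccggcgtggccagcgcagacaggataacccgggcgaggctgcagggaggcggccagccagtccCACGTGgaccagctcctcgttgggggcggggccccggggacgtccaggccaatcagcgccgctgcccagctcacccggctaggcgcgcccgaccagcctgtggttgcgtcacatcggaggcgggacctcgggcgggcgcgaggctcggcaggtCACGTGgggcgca
Slc38a2 and Slc2a6 held none of these motifs in their windows. Of all 32851 promoters in the table, 1.55% held the CRE, 6.75% the AP-1 motif, 6.02% the E-box, 6.47% the half-site and 3.45% the amino acid response motif. The 182 carrier promoters held them in 1.65%, 7.69%, 12.6%, 8.79% and 1.65% of cases in the same order. A match describes letters in the window only.

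Among the 23 amino acid carriers tested, 7 rose and 9 fell in WT cells, beside 28.6% and 28.6% of all rows. The 4 highest rises were in Slc38a2, Slc3a2, Slc7a1 and Slc7a5. Slc38a2 measured 1112, 1253 and 1381 units at the lowest, median and highest WT agonist library, against 525, 563 and 613 units in WT vehicle libraries (1.15 ± 0.05, adjusted p = 9.05e-16). Slc3a2, the heavy subunit that brings several light subunits to the cell surface, measured 381, 424 and 516 units under agonist and 196, 214 and 222 units under vehicle (1.01 ± 0.06, adjusted p = 1.08e-13). Both genes were higher in every agonist library than in any vehicle library.

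The light subunit Slc7a5, which pairs with Slc3a2 to exchange large neutral amino acids, rose as well. It measured 167, 176 and 202 units in WT agonist libraries, against 101, 103 and 107 units in WT vehicle libraries (0.79 ± 0.05, adjusted p = 5.53e-13). Slc7a1 stood at 413, 473 and 543 units under agonist and 250.5, 273 and 285 units under vehicle (0.83 ± 0.06, adjusted p = 5.89e-12). The libraries of the groups did not overlap for either gene. The neutral amino acid carrier Slc38a1 rose less (0.43 ± 0.10), as did Slc1a4 (0.17 ± 0.04), Slc7a6 (0.23 ± 0.06) and its neighbour on the opposite strand, Slc7a6os (0.21 ± 0.06). Slc1a4, Slc7a6 and Slc7a6os changed sign when libraries were brought to the same total. No strand setting of the counting is given in the sources used here, and reads of Slc7a6 and Slc7a6os cannot be told apart.

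Summed, the 25 rows of the amino acid class, Slc7a6os among them, reached 3122 ± 188.5 units in WT agonist libraries and 1942 ± 50.8 units in WT vehicle libraries. Slc38a2, Slc3a2, Slc7a1 and Slc7a5 together made 2346 ± 187.2 units under agonist and 1149 ± 35.3 units under vehicle, while the other 21 summed to 776.8 ± 31.02 units under agonist and 792.9 ± 23.2 units under vehicle (SD, n = 6 each). These 4 were picked after their values were seen. The fallers were Slc6a12, a betaine and GABA carrier, at −0.85 ± 0.14 (adjusted p = 8.59e-06), and Slc38a7, Slc6a19, Slc43a2, Slc36a1, Slc6a9, Slc7a4, Slc6a17 and Slc38a10, which lay between −0.45 ± 0.08 for Slc38a7 and −0.15 ± 0.04 for Slc38a10. Slc38a7 and Slc36a1 export amino acids from lysosomes, and the taurine carrier Slc6a6 stood at 175 ± 8.29 units under agonist and 175 ± 8.804 units under vehicle, a log2 fold change of 0.00 ± 0.05 (adjusted p = 0.995).

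Genes grouped here with regulators of amino acid carriers changed in the same comparison. Of 6 such genes measured, 5 rose and 1 fell in WT cells, beside 28.6% and 28.6% of all rows. Atf4, a transcription factor that activates amino acid carrier genes, rose by 0.95 ± 0.07 (adjusted p = 1.27e-11), and Chac1, Sesn2, Trib3 and Asns rose by 1.41 ± 0.08, 1.22 ± 0.06, 0.83 ± 0.11 and 0.60 ± 0.05. Nupr1 fell, at −0.52 ± 0.12 (adjusted p = 0.000805). The part of these 6 genes in the carrier changes was not tested. Of 7 sodium pump genes 1 rose (Fxyd5, 1.31 ± 0.21) and 1 fell (Atp1b1, −0.22 ± 0.07), of 4 scaffold genes of exchangers Ezr (0.75 ± 0.05) and Chp1 (0.10 ± 0.04) rose, and of 3 Slco genes 2 fell. Bsg, the chaperone of monocarboxylate carriers, stood at −0.04 ± 0.12 (adjusted p = 0.809).

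**Figure D2:**
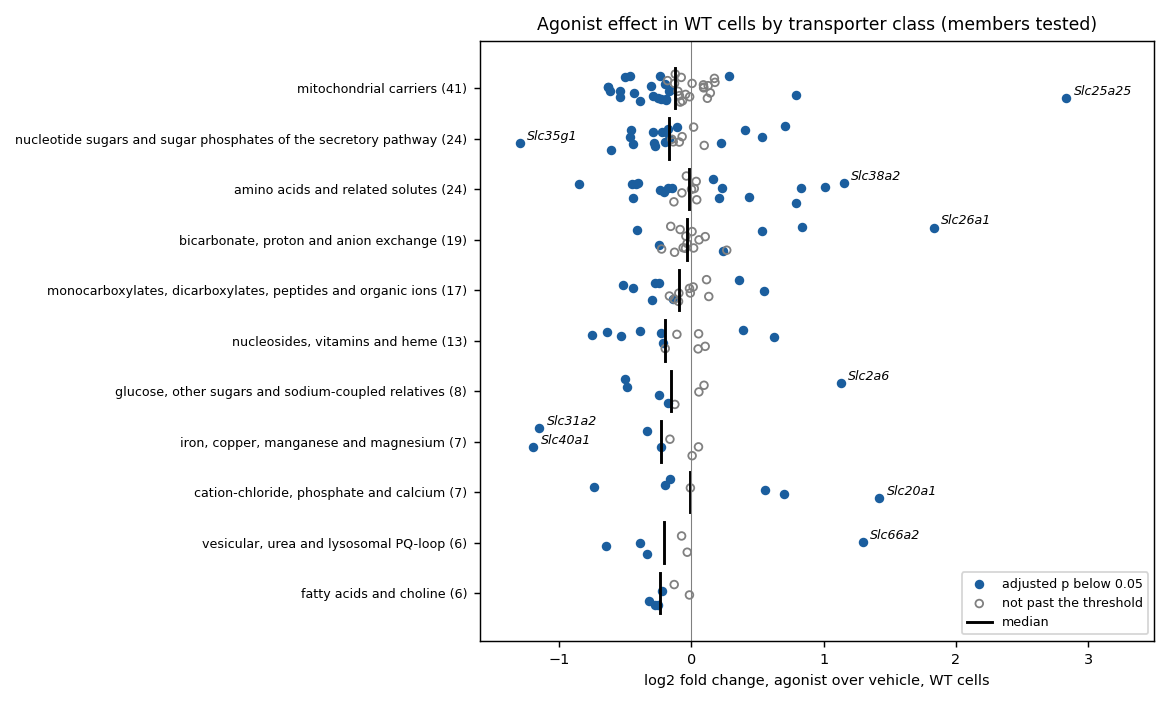
Log2 fold change of agonist over vehicle in WT cells for each of the 172 carriers tested, by transporter class, with the number tested in parentheses, which includes the 4 genes that encode no carrier; filled points passed an adjusted p below 0.05, open points did not, and the black line is the class median. Slc25a25 at 2.83 is the highest point, in the mitochondrial class, whose median is −0.13.

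The 41 mitochondrial carriers are the largest class, and apart from the calcium-regulated pair named above the called ones mostly fell. In all 3 rose and 19 fell, with a median of −0.13, beside 28.6% of all rows that rose and 28.6% that fell. Slc25a29, a carrier of basic amino acids, measured 5.51, 5.75 and 6.19 units in WT agonist libraries, against 7.898, 9.403 and 10.6 units in WT vehicle libraries (−0.63 ± 0.11, adjusted p = 2.22e-05). Slc25a45 measured 17.3, 17.9 and 18.9 units under agonist and 26.2, 27.5 and 31.4 units under vehicle (−0.63 ± 0.05, adjusted p = 3.82e-11). The mitochondrial choline carrier Slc25a48 stood at 134, 149 and 172 units under agonist and 192, 227 and 263 units under vehicle (−0.61 ± 0.07, adjusted p = 1.09e-07).

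For these 3 the agonist libraries lay below all vehicle libraries. Slc25a42, which imports coenzyme A, had a log2 fold change of −0.54 ± 0.09. The abundant exchangers did not pass the test, with −0.07 ± 0.06 for Slc25a4 (adjusted p = 0.333) and 0.17 ± 0.09 for Slc25a5 (adjusted p = 0.107). The phosphate carrier Slc25a3 was the other riser, at 0.29 ± 0.05 (adjusted p = 1.59e-05), and changed sign under quantile scaling.

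Metal carriers held no riser among 7, and 4 fell, beside 28.6% and 28.6% of all rows. Slc40a1, the exporter through which iron leaves cells, measured 50.4, 60.1 and 63.5 units in WT agonist libraries, against 114, 141 and 157 units in WT vehicle libraries (−1.20 ± 0.10, adjusted p = 1.14e-10). Slc31a2, a relative of the copper importer found on intracellular membranes, measured 23.8, 25.4 and 29.4 units under agonist and 48.4, 59.9 and 65.9 units under vehicle (−1.15 ± 0.09, adjusted p = 1.89e-11). Neither gene overlapped between the groups. The iron importer Slc11a2 fell less (−0.23 ± 0.05), as did Slc41a2 of the magnesium family (−0.34 ± 0.08), while the plasma membrane copper importer Slc31a1 stood at 0.01 ± 0.07 (adjusted p = 0.957). The class summed to 171.3 ± 10.2 units in WT agonist libraries and 290.7 ± 25.9 units in WT vehicle libraries (SD, n = 6 each).

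Chloride and acid-base carriers moved apart by gene. Of 7 cation-chloride, phosphate and calcium carriers, 3 rose and 3 fell, beside 28.6% and 28.6% of all rows. Slc12a2, which carries sodium, potassium and chloride into cells, measured 124, 142 and 167 units in WT agonist libraries, against 76.6, 87.1 and 105 units in WT vehicle libraries (0.70 ± 0.08, adjusted p = 2.26e-08). The potassium-chloride carrier Slc12a4 stood at 38.2, 43.99 and 56.7 units under agonist and 24.9, 31.8 and 36.9 units under vehicle (0.56 ± 0.10, adjusted p = 6.28e-05). Both were higher in every agonist library than in any vehicle library, while their relative Slc12a7 fell (−0.20 ± 0.05).

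Slc8b1, the sodium-calcium exchanger of mitochondria, went the other way. It measured 13.1, 15.3 and 16.6 units in WT agonist libraries, against 22.8, 26.1 and 27.1 units in WT vehicle libraries (−0.74 ± 0.08, adjusted p = 2.69e-08), without overlap. Of 16 carriers of bicarbonate, protons and anions, 4 rose and 2 fell, beside 28.6% and 28.6% of all rows. Besides Slc26a1, the risers were Slc4a11 (0.83 ± 0.21), whose groups overlapped, the sodium-bicarbonate cotransporter Slc4a7 (0.53 ± 0.07) and the sodium-proton exchanger Slc9a2 (0.24 ± 0.10). The sulfate carrier Slc26a2 was among the fallers (−0.41 ± 0.07).

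Of 24 carriers of nucleotide sugars and sugar phosphates, 14 were lower and 4 higher in WT cells, beside 28.6% and 28.6% of all rows. Slc35g1, a gene of the nucleotide sugar family by name, measured 16.7, 22.04 and 24.1 units in WT agonist libraries, against 41.9, 51.5 and 65.5 units in WT vehicle libraries (−1.30 ± 0.12, adjusted p = 5.66e-10). Slc35c1, the GDP-fucose carrier, stood at 33.4, 33.7 and 34.8 units under agonist and 43.6, 47.7 and 49.6 units under vehicle (−0.46 ± 0.04, adjusted p = 7.73e-11). Slc35b4, which carries UDP-sugars, stood at 10.9, 11.1 and 11.8 units under agonist and 16.6, 17.4 and 18.2 units under vehicle (−0.61 ± 0.05, adjusted p = 7.08e-11). All 3 were without overlap. The risers were Slc35e1 (0.70 ± 0.05, adjusted p = 1.7e-12), Slc35d1 (0.53 ± 0.07), Slc35e4 (0.40 ± 0.11) and Slc35b1 (0.22 ± 0.05), which brings ATP into the endoplasmic reticulum.

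In the smaller classes the called genes were again mostly lower, while of all rows 28.6% rose and 28.6% fell. With so few genes per class, these counts are a description only. Among 13 carriers of nucleosides, vitamins and heme, 2 rose and 6 fell, the thiamine importer Slc19a2 rising by 0.63 ± 0.07 (adjusted p = 9.13e-08). Slc46a3, a lysosomal carrier, measured 2.53, 3.31 and 3.54 units in WT agonist libraries, against 4.92, 5.81 and 6.58 units in WT vehicle libraries (−0.75 ± 0.09, adjusted p = 7.78e-08), and the heme carrier Slc48a1 stood at −0.64 ± 0.11 (adjusted p = 2.08e-05), both without overlap. Of 17 carriers of carboxylates, peptides and organic ions, 2 rose (Slc16a10, 0.55 ± 0.10, and Slc15a4, 0.36 ± 0.09) and 6 fell, led by Slc16a13 (−0.52 ± 0.07). Of 8 carriers classed with sugars by family number, 1 rose (Slc2a6) and 4 fell, among them both genes of SLC5, Slc5a6 and Slc5a9. Of 6 fatty acid and choline carriers 0 rose and 4 fell, and of 6 vesicular and lysosomal genes 1 rose (Slc66a2) and 3 fell. The lysosomal exporter of cationic amino acids Slc66a1 was among the last 3, at −0.65 ± 0.10 (adjusted p = 2.7e-06).

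Of the 42 families, 10 held called genes in both directions, 30 in 1 direction and 2 none. A family with 1 tested gene cannot hold calls in both directions, so this split partly follows family size. Of all rows, 28.6% rose and 28.6% fell in the same comparison in WT cells. Of the 6 rows named for SLC7, 4 rose and 1 fell, and the risers include Slc7a6os, which encodes no carrier. In SLC12 2 of 4 rose and 2 fell. In SLC25, 3 of 41 rose and 19 fell, in SLC35 4 of 20 rose and 12 fell, and in SLC38 2 of 6 rose and 2 fell. The SLC6 family, which carries neurotransmitters and amino acids with sodium, had 0 risers and 4 fallers among 7, and the SLC22 family of organic ion carriers 0 and 3 among 7.

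In KO cells the agonist was followed by few and small changes among the carriers. Of 172 tested, 3 rose and 6 fell, which is 1.74% and 3.49%, against 4.66% and 4.64% of all rows, and no carrier rose or fell by at least 1.5-fold, as 0.424% and 0.277% of all rows did. At an unadjusted p below 0.05, 31 of 172 carriers passed, which is 18%, against 28% of all rows. The largest fall was that of Slc40a1, with 94.9, 109 and 147 units at the lowest, median and highest KO agonist library, against 136, 154 and 171 units in KO vehicle libraries (−0.43 ± 0.10, adjusted p = 0.0142). Slc46a3 followed, with 6.91, 7.67 and 10.4 units under agonist and 9.68, 10.3 and 11.2 units under vehicle (−0.37 ± 0.09, adjusted p = 0.0188). In both genes the KO groups overlapped.

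The other fallers were Slc35f2 (−0.26 ± 0.07, adjusted p = 0.0246), Slc3a2 (−0.21 ± 0.06, adjusted p = 0.0272), the mitochondrial glutathione carrier Slc25a39 (−0.14 ± 0.04, adjusted p = 0.0254) and the neutral amino acid exchanger Slc1a4 (−0.13 ± 0.04, adjusted p = 0.0466). Slc44a2 (0.24 ± 0.06, adjusted p = 0.0215) and the mitochondrial carrier Slc25a30 (0.16 ± 0.04, adjusted p = 0.0163) were among the risers. Slc3a2 was the 1 faller without overlap between the KO groups, and 1 riser had none, beside 1.45% and 1.90% of all rows that were lower and higher without overlap. Of the 6 genes grouped with regulators of amino acid carriers, 0 rose and 3 fell in KO cells, beside 4.66% and 4.64% of all rows. These were Atf4 at −0.28 ± 0.07, Chac1 at −0.28 ± 0.08 and Nupr1 at −0.53 ± 0.12.

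Without the 6th KO vehicle and the 2nd KO agonist library, 8 carriers rose and 25 fell in KO cells, beside 10.8% and 11.9% of all rows, and all 9 called with every library kept their call and direction. Slc40a1 then stood at −0.53 ± 0.09. Slc25a29, Slc31a2 and Slc35g1 were among the carriers called in addition, at −0.35 ± 0.08, −0.24 ± 0.07 and −0.38 ± 0.12. Leaving out single KO libraries moved the counts between 1 and 7 higher, and between 1 and 12 lower; the lowest of both came without the 1st KO agonist library, the most risers without the 2nd KO agonist library, and 12 fallers without that library or without the 6th KO vehicle library. Of all rows, 1.35% rose and 1.11% fell without the 1st KO agonist library, 7.76% and 8.25% without the 2nd, and 6.65% and 7.03% without the 6th KO vehicle library. Of the 9, only Slc40a1 and Slc25a30 kept their call whichever single library was left out. Without the 1st KO agonist library the adjusted p of the other 7 lay between 0.0526 for Slc46a3 and 0.0875 for Slc1a4.

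**Figure D3:**
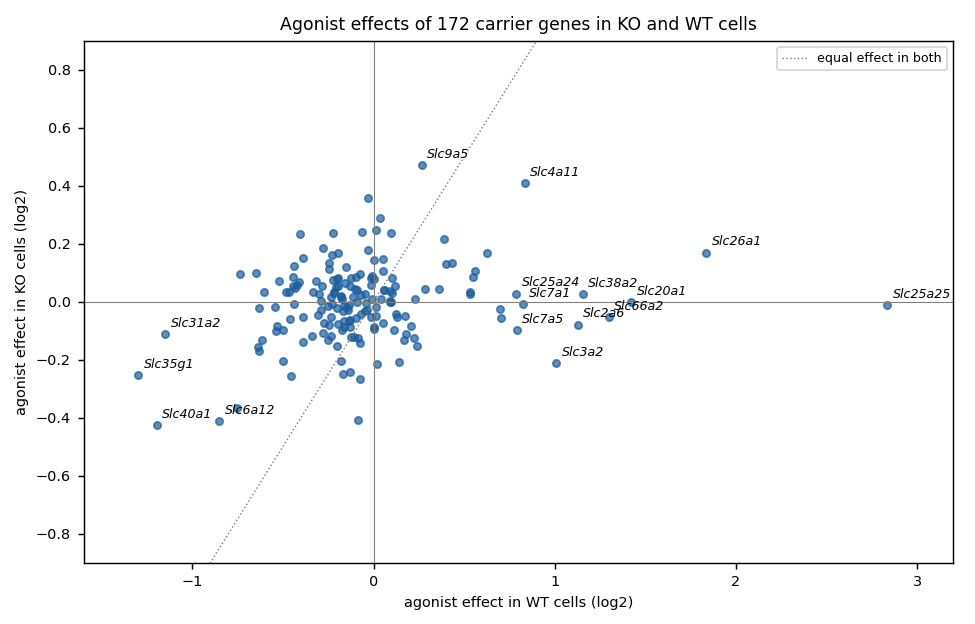
Agonist effect in KO cells (vertical axis) and in WT cells (horizontal axis), both as log2 fold change over vehicle, 1 point for each of the 172 carriers; the axes have different ranges, and the dotted line marks equal effects. Slc25a25 lies at −0.01 in KO cells and 2.83 in WT cells, and the KO effects stay between −0.43 and 0.47.

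Whether the agonist effect differed with genotype was tested as the KO effect minus the WT effect. It was higher in KO cells for 47 carriers and lower for 24, which is 27.3% and 14.0% of 172, against 19.6% and 21.5% of all rows. The median difference was 0.12 over the carriers and 0.02 over all rows, and with all libraries at the same total 122 were higher and 14 lower, with a median of 0.28 over all rows, of which 55.5% were higher and 9.78% lower. Without the 6th KO vehicle and 2nd KO agonist library 52 were higher and 31 lower, beside 22.2% and 23.8% of all rows, and the difference was −2.97 ± 0.13 for Slc25a25, −1.12 ± 0.08 for Slc38a2 and 0.66 ± 0.13 for Slc40a1. Differences of at least 1.5-fold numbered 9 higher and 12 lower, against 4.26% and 7.8% of all rows. Slc25a25 had an effect of −0.01 ± 0.11 in KO cells and 2.83 ± 0.11 in WT cells, a difference of −2.85 ± 0.15 (adjusted p = 5.97e-14). For Slc38a2 the effects were 0.02 ± 0.05 in KO cells and 1.15 ± 0.05 in WT cells (−1.13 ± 0.07, adjusted p = 3.61e-12). The 6 KO agonist libraries of Slc38a2 ranged around those under vehicle, with 517, 572 and 609.9 units under agonist and 504, 567 and 590.2 units under vehicle.

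The pair Slc3a2 and Slc7a5 differed in the same way. The effect on Slc3a2 was −0.21 ± 0.06 in KO cells and 1.01 ± 0.06 in WT cells (−1.22 ± 0.08, adjusted p = 5.82e-12), and on Slc7a5 −0.10 ± 0.05 in KO cells and 0.79 ± 0.05 in WT cells (−0.89 ± 0.07, adjusted p = 1.05e-10). Slc20a1 (−1.42 ± 0.10), Slc7a1 (−0.84 ± 0.08), Slc35e1 (−0.76 ± 0.07) and Slc25a24 (−0.76 ± 0.08) also had lower effects in KO cells. Among genes with a fall in WT cells, the difference was 1.04 ± 0.16 for Slc35g1, 1.04 ± 0.12 for Slc31a2, 0.83 ± 0.12 for Slc8b1, 0.64 ± 0.07 for Slc35b4 and 0.50 ± 0.05 for Slc35c1, each with an adjusted p of 1.16e-05 or less. Slc40a1 fell in both genotypes, by a smaller amount in KO cells (−0.43 ± 0.10) than in WT cells (−1.20 ± 0.10), and the difference was 0.77 ± 0.14 (adjusted p = 6.75e-05). For Slc6a12 the difference did not pass the test (0.44 ± 0.19, adjusted p = 0.0732), nor did it for Slc35f2 (0.20 ± 0.10, adjusted p = 0.104).

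Under vehicle, KO cells differed from WT cells at many carriers, with shares near those of all rows. Of 172 tested, 40 were higher and 47 lower in KO cells, which is 23.3% and 27.3%, against 23.9% and 23.9% of all rows, and the median difference was −0.01. At least 1.5-fold changes were seen for 9 higher and 10 lower carriers, against 3.64% and 4.26% of all rows. Groups did not overlap for 25 of the higher and 29 of the lower. That is 14.5% and 16.9% of the 172 carriers, against 13.1% and 14.1% of all rows. Without the 6th KO vehicle library 48 were higher and 45 lower, beside 26.4% and 26.1% of all rows, and the 24 genes named for this comparison all kept their direction and call. This comparison shares its WT vehicle libraries with the agonist comparison in WT cells and its KO vehicle libraries with that in KO cells, so values are only set side by side. Among principal cell markers, 4 were higher and 3 lower. Aqp2 averaged 87.3 ± 18.0 units in KO and 17.7 ± 4.94 units in WT vehicle libraries, and Hsd11b2 (1.94), Elf5 (0.46) and Cdh1 (0.30) were also higher. Scnn1b averaged 1.95 ± 0.27 units in KO and 8.19 ± 1.14 units in WT vehicle libraries, and Scnn1a (−0.36) and Krt18 (−0.20) were also lower. The part of these markers in the carrier differences was not tested.

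Slc8a3, a sodium-calcium exchanger of the plasma membrane, was the carrier with the largest rise. It measured 23.2, 24.8 and 26.1 units at the lowest, median and highest KO vehicle library, against 6.04, 6.52 and 7.71 units in WT vehicle libraries (1.82 ± 0.06, adjusted p = 1.54e-18). The agonist left it at 24.8 ± 0.986 units in KO cells and 6.59 ± 0.580 units in WT cells. Slc16a10, which carries aromatic amino acids, showed the largest fall, with 4.81, 4.97 and 6.15 units in KO vehicle libraries, against 17.5, 20.1 and 23.9 units in WT vehicle libraries (−1.85 ± 0.10, adjusted p = 4.74e-14). Neither gene overlapped between genotypes.

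Of 23 amino acid carriers 10 were higher and 5 lower in KO cells, beside 23.9% and 23.9% of all rows. By family number the class leaves out Slc16a10. Slc7a6, a light subunit that pairs with Slc3a2, measured 55.01, 56.1 and 58.5 units in KO vehicle libraries, against 25.2, 30.8 and 33.4 units in WT vehicle libraries (0.91 ± 0.06, adjusted p = 4.47e-12). Slc7a5 measured 145, 159 and 171 units in KO and 101, 103 and 107 units in WT vehicle libraries (0.60 ± 0.05, adjusted p = 3.15e-10), and Slc6a17, a vesicular carrier of neutral amino acids, 86.5, 101 and 104 units in KO and 56.4, 62.1 and 64.2 units in WT vehicle libraries (0.69 ± 0.06, adjusted p = 2.31e-10). Their genotypes did not overlap. Slc6a6 was lower, with 105, 112 and 126 units in KO and 164, 175 and 184 units in WT vehicle libraries (−0.63 ± 0.05, adjusted p = 3.53e-11), and the scarce cationic carrier Slc7a3 was lower as well (−0.88 ± 0.16, adjusted p = 8.07e-05). Slc7a5 and Slc7a6 lie on chromosome 8, where 55.3% of all rows were higher in KO cells. Slc6a6 lies on chromosome 6, where 71.3% were lower. The 4 amino acid carriers that rose most under agonist in WT cells summed to 1277 ± 62.4 units in KO vehicle libraries and 1149 ± 35.3 units in WT vehicle libraries.

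Mitochondrial carriers were higher in 11 and lower in 8 of 41 cases, beside 23.9% and 23.9% of all rows. Slc25a48 had 88.5, 113 and 114 units in KO vehicle libraries, against 192, 227 and 263 units in WT vehicle libraries (−1.07 ± 0.07, adjusted p = 1.35e-11), and the oxodicarboxylate carrier Slc25a21 and the S-adenosylmethionine carrier Slc25a26 were also lower (−0.85 ± 0.12 and −0.58 ± 0.08). Slc25a21 averaged 0.995 ± 0.17 units in KO vehicle and 2.20 ± 0.25 units in WT vehicle libraries, and it passed the filter through its WT libraries. The aspartate-glutamate carrier Slc25a12 (0.51 ± 0.04) and the glutamate carrier Slc25a22 (0.48 ± 0.08) were higher. Slc25a4, the most abundant carrier, averaged 810.3 ± 88.5 units in KO and 607 ± 22.5 units in WT vehicle libraries (0.41 ± 0.06, adjusted p = 2.67e-06). Without both libraries that stood apart its difference was 0.47 ± 0.04, and 12 mitochondrial carriers were higher and 9 lower, as were 11 and 5 of the 23 amino acid carriers.

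Of the 16 carriers of bicarbonate, protons and anions, 0 were higher and 7 lower in KO cells, beside 23.9% and 23.9% of all rows. Without both libraries that stood apart 2 were higher and 7 lower, beside 26.5% and 26.3%. The largest fall was that of Slc4a7, with 4.39, 4.87 and 5.52 units in KO and 8.16, 8.84 and 10.3 units in WT vehicle libraries (−0.83 ± 0.07, adjusted p = 1.83e-10). In the other classes the riboflavin carrier Slc52a3 (1.12 ± 0.09), Slc46a3 (0.80 ± 0.09), the vesicular amine carrier Slc18a1 (0.60 ± 0.10) and the monocarboxylate family genes Slc16a5 (0.86 ± 0.14) and Slc16a6 (0.53 ± 0.11) were higher. Slc22a29 was higher too (0.85 ± 0.11), but it is one of a cluster of closely related genes whose reads the counting could have split. Slc16a13 (−0.71 ± 0.07), the sodium-coupled sugar carrier Slc5a9 (−0.62 ± 0.15), Slc35b3 (−0.59 ± 0.08), which carries the sulfate donor into the Golgi, the fatty acid family gene Slc27a3 (−0.57 ± 0.12) and Slc37a3 (−0.50 ± 0.05) were lower.

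**Figure D4:**
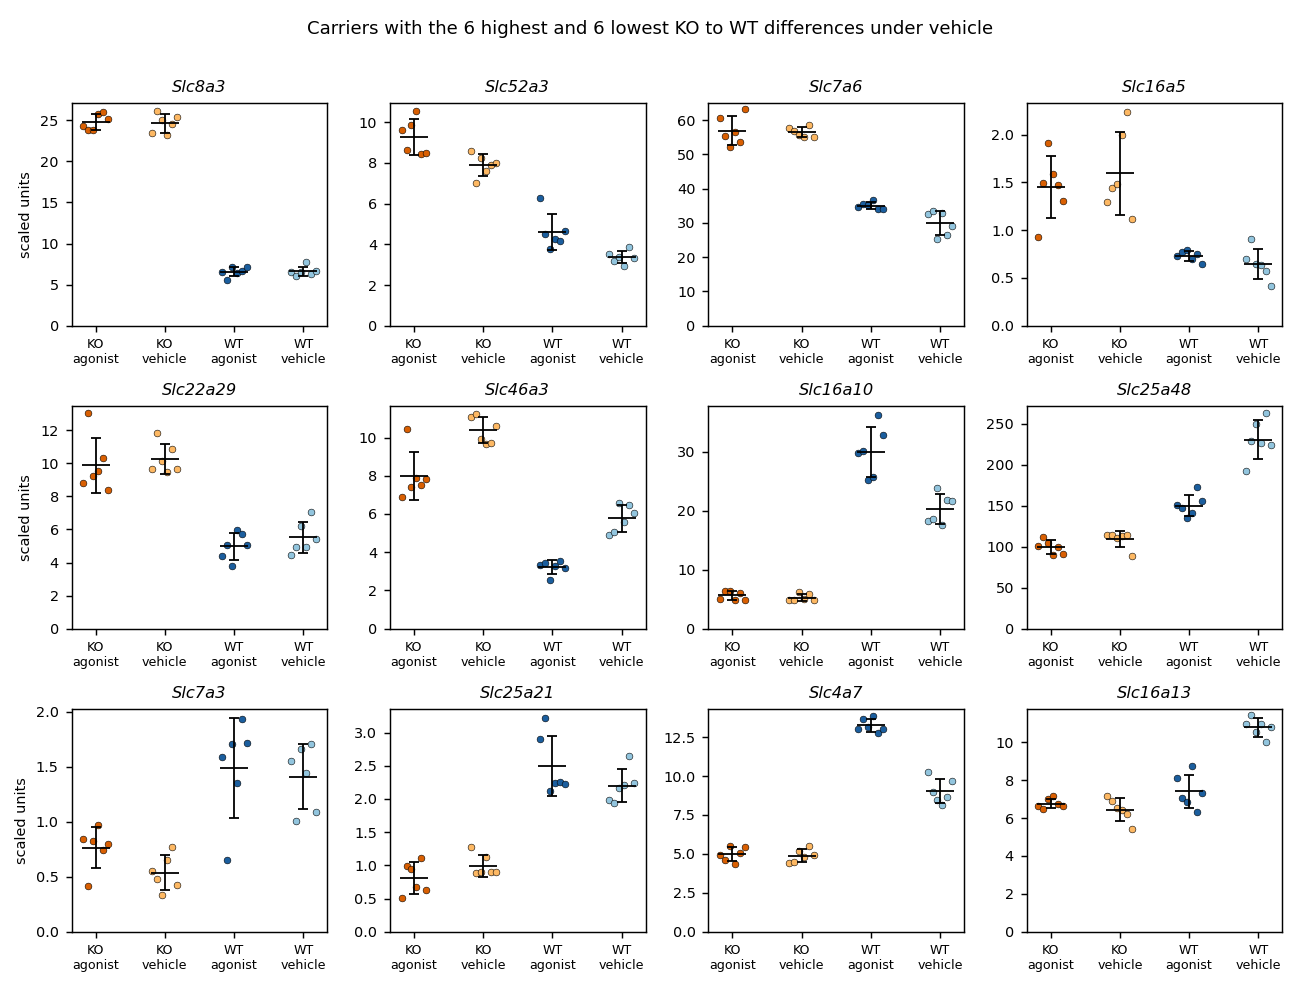
Level of the 6 carriers with the highest and the 6 with the lowest KO to WT difference under vehicle, in scaled units per gene length, 1 point per library with the mean and SD of each group of 6. For Slc8a3 the vehicle libraries lie at 23.25 units or more in KO cells and at 7.71 units or less in WT cells.

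The differences between the genotypes also went with the chromosome. On chromosome 6, 71.3% of all rows were lower in KO cells and 7.21% higher, and of its 7 carriers 5 were lower (Slc6a6, Slc25a13, Slc25a26, Slc37a3 and Slc35b4) and 1 higher. On chromosome 8, 55.3% of all rows were higher and 6.66% lower, and of its 12 carriers 8 were higher, among them Slc7a5, Slc7a6, Slc18a1 and Slc25a4, and 0 lower. Other chromosomes had shifts too. On chromosome 10, 52.8% of all rows were lower (median −0.16), and of its 8 carriers 0 were higher and 3 lower. On chromosome 13, 48.8% of all rows were lower, and of its 7 carriers 1 was higher and 3 lower. On chromosomes 12 and 19, 39.7% and 39.9% of all rows were higher, and on 14, 15 and 16, 38.3%, 35.5% and 35% were lower. Slc8a3 lies on chromosome 12, Slc16a10 on 10, Slc25a48 and Slc35b3 on 13, Slc4a7 on 14 and Slc22a29 on 19. On all chromosomes except 6 and 8, 31 of 153 carriers were higher and 42 lower. Without both libraries that stood apart 38 and 40 were, with the counts on chromosomes 6 and 8 as before. Over all chromosomes together, 23.9% of all rows were higher and 23.9% lower, and 26.5% and 26.3% without both libraries. The share of all rows outside chromosomes 6 and 8 was not computed. The part of the chromosome shifts in the carrier differences was not tested.

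**Figure D5:**
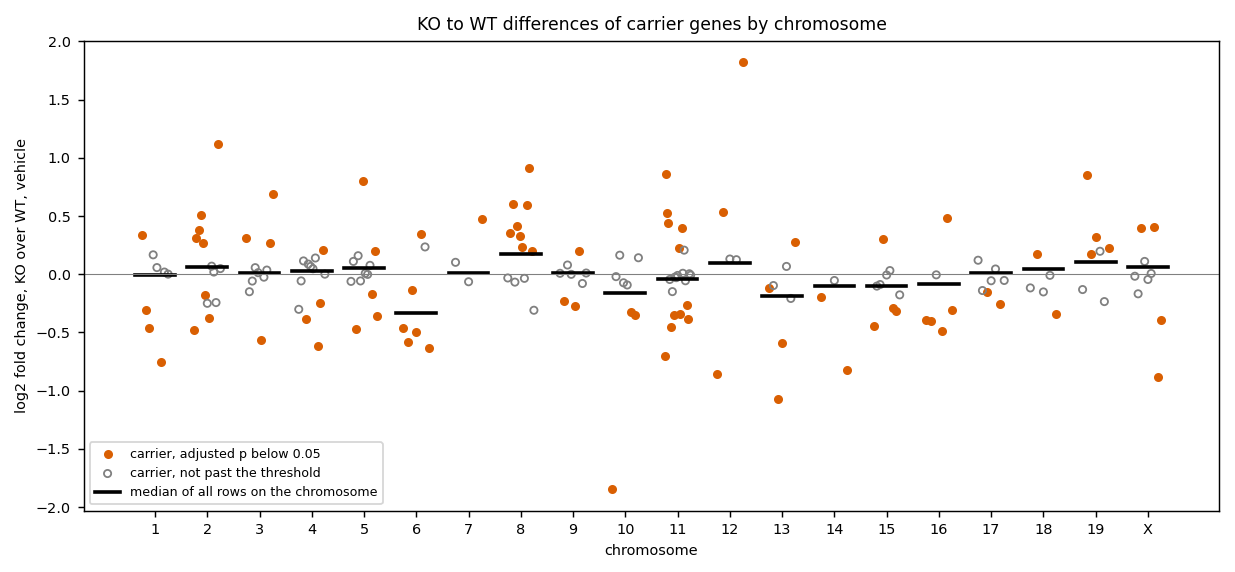
Log2 fold change of KO over WT cells under vehicle for each carrier, by chromosome; filled points passed an adjusted p below 0.05, open points did not, and black bars are the median of all rows on that chromosome. The bar lies at −0.33 on chromosome 6 and 0.17 on chromosome 8, and 8 of the 12 carriers on chromosome 8 are called higher.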

How the data were processed

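RNA abundance was measured in 24 poly(A) libraries of mpkCCD cells, 6 in each of 4 groups set by the labels. The authors deposited 1 table of signal values scaled between libraries and divided by gene length, whose submitters' processing notes name STAR 2.7.8a, GRCm39, DESeq2 and DESeq without roles. Multiplied by gene length and a library factor, the deposited signal values came out as whole reads within 0.1 in 100% of cases, which gave the depth. Scaled units are the deposited values times 1 constant, 92.1, for all libraries. limma 3.58.1 in R 4.3.3 was fitted to log2(value + 0.5) of all 24 libraries together, with trend and robust moderation, for 11557 rows whose mean reached 1 unit. Tests were two-sided and adjusted by Benjamini-Hochberg over those rows, with calls at 0.05. Fold changes of scarce genes are understated by the added 0.5. The procedure was tested on simulated data. Count tests planned on recovered reads were replaced by voom, chosen after seeing the data, because the deposited unit is not counts. By rule, the text names carriers with the largest called changes without overlap in WT cells and between genotypes, the smallest adjusted p in KO cells and for the difference of effects, and the highest levels overall and per class. Other genes were named after their values were seen, and some are not reported here. The carriers, rule and lists were chosen with earlier results of these data known. Alternatives covered pseudocount, filter, scaling, samples fitted, moderation, replicate number, left-out libraries and a 1.5-fold minimum.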

Additional observations from a re-analysis of the deposited data

Results flagged for a closer look

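Among 256 sets of 1 named gene and 1 group of 6 libraries, 25 held a library whose gap to the nearest of the others exceeded 0.625 of the group's range, which chance gives in about 1 in 20 sets. The 6th KO vehicle library accounted for most. It was low, in scaled units, for Slc12a4 (28.54, others from 39.61), Slc16a1 (153.8, others from 185.5), Slc20a1 (26.12, others from 31.22), Slc25a1 (182.0, others from 213.2), Slc25a3 (262, others from 315.4), Slc25a4 (643.7, others from 809.9), Slc25a5 (489.9, others from 805.5) and Slc25a48 (88.53, others from 111.1). It was also low for Slc31a2 (33.25), Slc35b3 (9.473), Slc37a3 (31.91), Slc49a4 (31.79), Slc4a2 (151.5) and Slc66a2 (30.94), and high for Slc50a1 (274.8, others up to 188.3).

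The 2nd KO agonist library was low for Slc12a4 (35.23) and Slc44a2 (189.9), and high for Slc35f2 (68.82), Slc46a3 (10.43) and Slc49a4 (47.83). Single flags fell on Slc25a45 in the 5th KO agonist library (38.51), Slc38a2 in the 2nd KO vehicle library (504), Slc3a2 in the 1st WT vehicle library (196.1), Slc52a3 in the 1st WT agonist library (6.287) and Slc8a3 in the 4th WT vehicle library (7.707).

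The agonist effect in KO cells minus that in WT cells, the test of the difference itself in limma, is given here for the 10 carriers with the lowest adjusted p. It was −2.85 for Slc25a25, −1.42 for Slc20a1, −1.22 for Slc3a2, −1.13 for Slc38a2, −0.89 for Slc7a5, −0.84 for Slc7a1, −0.76 for Slc35e1 and −0.76 for Slc25a24. It was 0.64 for Slc35b4 and 0.50 for Slc35c1, which fell in WT cells.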

How the results depend on the processing

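With each library at the same total, 18 carriers were higher and 126 lower in WT agonist against WT vehicle cells (median −0.36), the KO agonist median was 0.035, and the KO minus WT difference of agonist effects was higher for 122 and lower for 14 (median 0.39). Quantile scaling gave 5 higher in KO agonist cells. Without the 6th KO vehicle and 2nd KO agonist libraries, 8 carriers were higher and 25 lower in KO agonist cells (median −0.037), and the difference of effects had a median of 0.075. Requiring at least 1.5-fold left 14 higher and 12 lower for the agonist in WT cells, 0 and 0 in KO cells, 9 and 12 for the difference of effects and 9 and 10 between genotypes under vehicle. The cause of these shifts was not tested, apart from the fold minimum, which removes small changes by construction.

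With single libraries left out, the agonist comparison in KO cells ranged from 1 to 7 higher and 1 to 12 lower (median −0.029 to 0.016). It had 1 higher and 1 lower without the 1st KO agonist library, 7 and 12 without the 2nd, and 5 and 12 without the 6th KO vehicle library; without the 4th, 5th or 6th KO agonist library 3, 3 and 2 were lower. In WT cells the ranges were 27 to 30 higher and 65 to 77 lower (median −0.14 to −0.11), for the difference of effects 43 to 53 and 21 to 29 (median 0.09 to 0.13), and for the genotypes under vehicle 39 to 48 and 42 to 47 (median −0.03 to 0.01). voom on recovered reads, chosen after seeing the data, gave 28 higher and 74 lower for the agonist in WT cells, 4 and 7 in KO cells, 50 and 24 for the difference and 40 and 48 for KO against WT cells. The planned edgeR and DESeq2 fits were not run. The alternatives gave 1686 results for the 67 gene effects named by rule. In 33 of these results a call was lost, each time for an agonist effect in KO cells, 60 of the effects kept their call throughout, and 0 results reversed. These 67 were picked among called changes for their size or small adjusted p, which favours stable calls. Outside them, the agonist effects in WT cells of Slc1a4, Slc35b1, Slc7a6 and Slc7a6os changed sign at the same total, and that of Slc25a3 under quantile scaling.

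Replicate numbers did not pair the libraries: deviations of same-numbered libraries correlated between −0.28 and 0.49. With the replicate number as a block, 28 carriers were higher and 73 lower for the agonist in WT cells, 3 and 5 in KO cells, 47 and 23 for the difference and 39 and 47 for KO against WT cells. Carriers that passed the filter had at least 7 reads in each library.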

Other observations

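Summed levels of the transporter classes moved by different amounts in WT cells. All carriers together made 1.025% of the summed signal in KO agonist and 1.018% in KO vehicle libraries, and 0.935% in WT agonist and 0.977% in WT vehicle libraries. Cation-chloride, phosphate and calcium carriers summed to 340.4 ± 24.5 units in WT agonist and 245.5 ± 6.23 units in WT vehicle libraries, and vesicular genes to 213 ± 19.9 units in WT agonist and 118 ± 11.0 units in WT vehicle libraries, most of it Slc66a2 (SD, n = 6 each). Mitochondrial carriers summed to 3680 ± 133 units in WT agonist and 3533 ± 79.7 units in WT vehicle libraries, and in KO cells to 3630 ± 104 units under agonist and 3742 ± 322 units under vehicle, where the 6th vehicle library was the lowest. Fatty acid and choline carriers summed to 458 ± 8.97 units in WT agonist and 523 ± 8.45 units in WT vehicle libraries. In KO cells they summed to 546 ± 6.98 units under agonist and 512 ± 17.7 units under vehicle.

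Carriers that rose in WT cells had a median level of 34.97 units under WT vehicle, those that fell 28.4 units and those not called 18.9 units, while over all rows the medians were 45.9, 22.9 and 29.5 units.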
